A study of Homo sapiens with 8 samples.

Results

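The long intergenic non-coding RNAs that carry a LINC number were taken from the 22Rv1 gene table: every entry whose symbol is LINC followed only by digits and whose normalized count averaged at least 50 over all 8 libraries. There were 108 such RNAs among 57603 entries, out of 2193 entries with a LINC number. Their levels chose them, so the levels are given as a description. The mean was taken over all 4 groups, and 25 of the 108 had a group mean under 50 in at least 1 group, so that such an RNA could have entered through the groups in which it was high. The pair just inside the limit was LINC02012, with a mean of 51.7, and LINC01647, with a mean of 51.8. The pair just outside was LINC01666 (49.69) and LINC01311 (49.67).

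22Rv1 is an established line of castration-resistant prostate cancer cells that expresses a gastrointestinal gene programme. Its cells carried either HNF4G, a transcription factor of the gastrointestinal lineage, or GFP, a fluorescent control protein, as a transgene. The murine stem cell virus promoter drives these transgenes; the study describes it as not repressed by the drug. The 4 groups of 2 libraries each were HNF4G cells with ABBV-075, HNF4G cells with DMSO, GFP cells with ABBV-075 and GFP cells with DMSO, all harvested after 24 hours. ABBV-075 (mivebresib), given at 25 nM, blocks the bromodomains with which BET proteins bind acetylated histones, and DMSO is its vehicle. The design asks what BET inhibition does to transcripts when HNF4G itself cannot be lost with the drug. Nothing in the labels tells if the paired libraries were grown separately; the p-values thus reflect spread from library to library, possibly only technical.

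Long non-coding RNAs are transcribed by RNA polymerase II and mostly spliced and polyadenylated like mRNAs, but carry no long open reading frame. Many are expressed in only a few tissues. Some act at the site where they are made, on the chromatin of nearby genes, while others bind proteins or microRNAs elsewhere in the cell. A LINC number is the name given to an intergenic non-coding gene before a function is known, so the class is defined by nomenclature and shares no pathway. BET proteins load onto active promoters and enhancers and help polymerase II into elongation, and non-coding RNAs are produced from the same kinds of sites.

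The libraries held 31508275 to 40262678 reads. HNF4G itself checked the labels, with 43972 and 34116 normalized counts in HNF4G cells with ABBV-075, 10109 and 12104 in HNF4G cells with DMSO, 206 and 213 in GFP cells with ABBV-075, and 1088 and 993 in GFP cells with DMSO. It was thus higher with the drug in HNF4G cells (log2 1.81 ± 0.15, limma adjusted p = 0.000155). All 12 prostate luminal markers were measurable, with a summed level of 122543 to 159787 normalized counts; 3 were called higher and 3 lower with ABBV-075 in each line, KLK3 falling most, with log2 changes of −3.01 in HNF4G cells and −2.40 in GFP cells. The sum of 10 immune and endothelial markers stayed between 31.1 and 56.2. The sum of 8 stromal markers was 480 to 491 in HNF4G cells with ABBV-075, 1391 to 1407 in HNF4G cells with DMSO, 554 to 556 in GFP cells with ABBV-075 and 1688 to 1715 in GFP cells with DMSO. Most of the sum under DMSO was LUM, with 222.3 and 147.2, 934.7 and 1042.3, 215.9 and 215.7, and 1283.2 and 1262.7 in the same order of groups. Of the 6 stromal markers tested, 3 (LUM, DCN and COL3A1) were called lower in each line and 0 higher, while TAGLN had log2 changes of 0.37 in HNF4G cells and 0.44 in GFP cells. Of 3 neuroendocrine markers tested, 2 were called lower in each line: CHGA fell by 1.54 and 1.35, and CHGB by 0.79 and 0.91. The part of these markers in the results below was not tested. The first HNF4G-ABBV-075 library and the second HNF4G-DMSO library stood apart, with a mean gene GC content of 46.3% over their reads against 47.4% to 47.9% in the other 6.

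The 108 RNAs together took 0.0925% and 0.0904% of the reads in HNF4G cells with ABBV-075, 0.105% in both libraries of HNF4G cells with DMSO, 0.0906% and 0.0909% in GFP cells with ABBV-075, and 0.0995% and 0.103% in GFP cells with DMSO. Each of the 4 ABBV-075 libraries lay below each of the 4 DMSO libraries. The difference averaged −0.0119 percentage points. Since the levels chose the RNAs, it is given as a description only. The RNAs' own means ran from 51.7 to 3615 normalized counts with a median of 137. The 6 highest held 37.3% to 38.5% of the class's reads under ABBV-075, against 40.3% to 41.3% under DMSO.

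Of the 108 genes, 107 were found by their Ensembl identifier in the GENCODE 44 annotation of GRCh38, LINC03009 being the other. The label "non-coding" did not hold throughout: 97 were annotated as lncRNA, 9 as transcribed pseudogenes, and LINC00672 as a protein-coding gene now named LASP1NB. Their longest transcripts had a median of 2590 bases and 3 exons, and 27 had a single exon. Over the tested genes of the same annotation the medians were 1936 bases and 2 exons for lncRNAs and 3898 bases and 8 exons for protein-coding genes. The loci lay on 22 chromosomes, with the most, 14, on chromosome 1. How strand was treated in counting is not given in the sources used here. For 46 of the RNAs whose exons share bases with another annotated gene, reads of both genes may therefore not be separable. A set of 16, some of them among those 46, had a transcript elsewhere in the annotation that matched at least 50% of their length at 95% identity or more. LINC00960 was the only host of a microRNA, MIR4273, within an exon or intron.

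ABBV-075 changed about as many of these RNAs upward as downward, and it did so in both lines. In HNF4G cells 24 rose, 29 fell and 55 did not pass the test, so that 49.1% were called at an adjusted p under 0.05 (limma, Benjamini-Hochberg over 17876 genes), against 31.2% of all genes tested (12.9% higher, 18.3% lower) and 33.6% of genes with the same minimum mean of 50. Quantile normalization turned the balance to 28 higher and 24 lower. In GFP cells 29 rose, 26 fell and 53 did not pass, so that 50.9% were called, against 33.4% of all genes (14.2% higher, 19.2% lower) and 35.9% of genes with the same minimum mean. No test of these shares against each other was made. The GFP count became 36 without either GFP-ABBV-075 library or without the first GFP-DMSO library, where the lone library left was assumed to vary like the other groups, and the HNF4G count became 35 when only its own 4 libraries were fitted. The median log2 change was −0.12 in HNF4G cells and −0.06 in GFP cells, beside 0.02 and −0.01 over all genes. These medians depend on the scaling. Quantile normalization raised the log2 changes of the RNAs by a median of 0.15 in HNF4G cells and 0.16 in GFP cells, against 0.06 and 0.09 over all genes. The median size of the change, whatever its sign, was 0.53 in HNF4G cells and 0.55 in GFP cells, beside 0.32 in both lines over genes with the same minimum mean. In the 132 LINC entries averaging 10 to 50, which are measured less precisely, 28.8% were called in HNF4G cells and 29.5% in GFP cells. The median standard error of a log2 change was 0.19 for the RNAs described here and 0.36 for those less abundant entries. It was 0.15 for genes with the same minimum mean, which were thus measured more precisely than these RNAs.

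**Figure D1:**
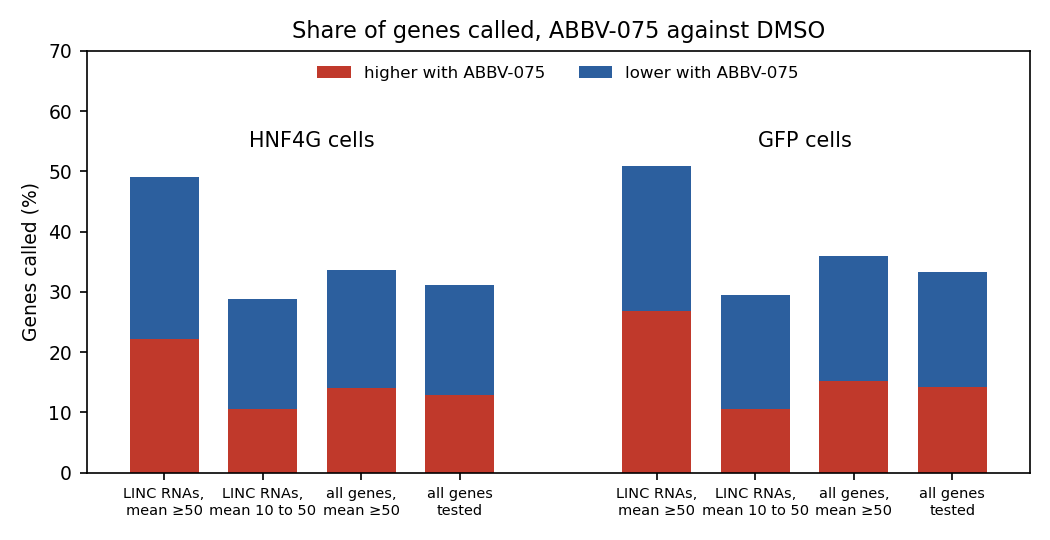
Percentage of genes called (limma adjusted p under 0.05) as higher (red) or lower (blue) with ABBV-075 than with DMSO, for LINC RNAs with a mean of at least 50, LINC RNAs averaging 10 to 50, genes with the same minimum mean and all genes tested, in HNF4G cells (left) and GFP cells (right). The bars of the LINC RNAs with a mean of at least 50 reach 49.1% in HNF4G cells and 50.9% in GFP cells, against 31.2% and 33.4% for all genes tested.

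The 2 lines share no library in these comparisons. Both were tested in the same fit over all 8 libraries, however, so a gene has the same standard error in both lines. Their calls are therefore not independent of each other. The calls fell into 23 RNAs higher in both lines, 21 lower in both, 1 higher and 8 lower in HNF4G cells only, 6 higher and 5 lower in GFP cells only, and 44 in neither; none was called in opposite directions. The sign of the change matched in 99 of 108. Over all genes tested, 31.2% were called in HNF4G cells and 33.4% in GFP cells. The all-gene counts of calls in both lines and of matching signs are not given here. This agreement is thus not shown to be particular to the class. The difference between the drug's effect in HNF4G cells and in GFP cells passed the test for 0 of the 108 (limma interaction term), beside 0.0112% of all genes. An unadjusted limma p under 0.05 was reached by 3 of the 108, beside 452 of all 17876 genes. By edgeR or DESeq2 0 of the 108 passed. A call in only a single line is therefore not shown to be particular to that line. The RNA with the smallest interaction p was LINC00869, at −0.78 ± 0.29 (log2, SE) with an unadjusted p of 0.0261 and an adjusted p of 1.00 by limma.

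**Figure D2:**
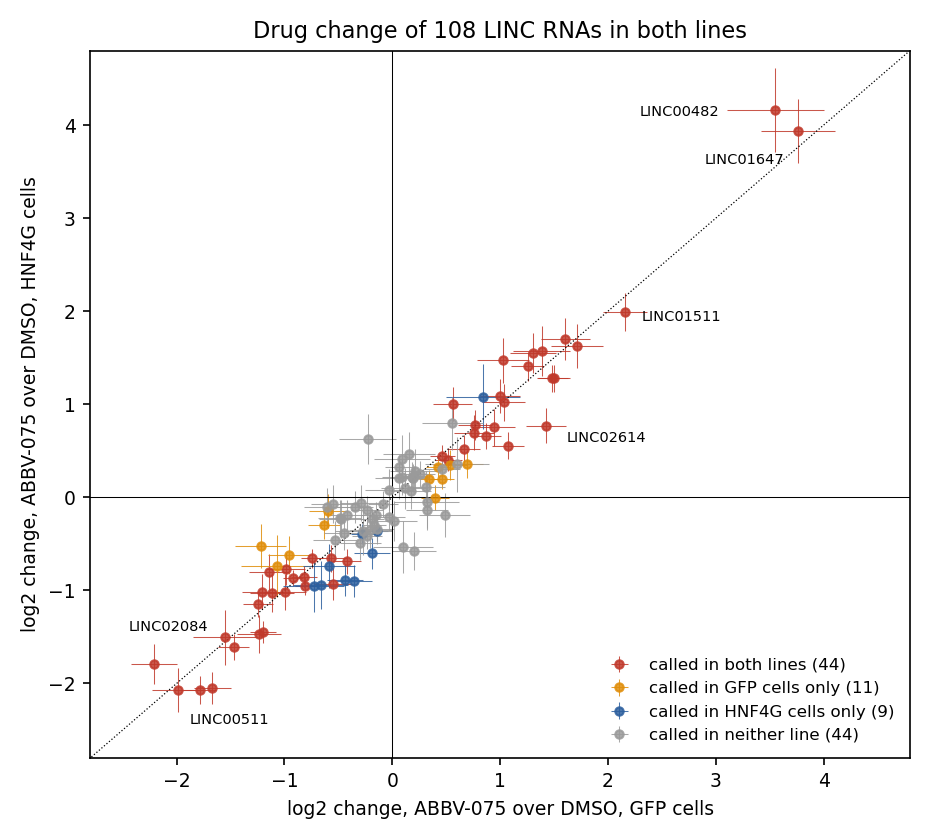
log2 change of each of the 108 LINC RNAs with ABBV-075 over DMSO in HNF4G cells (vertical) and GFP cells (horizontal); bars are standard errors from limma, colours give the line in which the RNA was called, and the dotted line marks equal changes. The points run along the dotted line, with LINC00482 and LINC01647 at the upper end and LINC02084, LINC00865, LINC00839 and LINC00511 at the lower end.

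Among the rises, LINC00482 and LINC01647 stood apart from all others. LINC00482, a gene of 4 exons at chr17:81303771-81309278 on the minus strand, had 56.3 and 134.8 normalized counts in HNF4G cells with ABBV-075, against 2.9 and 5.2 with DMSO. In GFP cells it had 87.0 and 137.3 with ABBV-075, against 8.7 and 8.1 with DMSO. The groups did not overlap in either line, although the treated HNF4G libraries were more than a factor of 2 apart. The DMSO levels rest on 3 and 6 reads in HNF4G cells and 9 and 8 in GFP cells. The ratio of means was 23.6 in HNF4G cells and 13.4 in GFP cells, and the log2 changes were 4.17 ± 0.45 and 3.55 ± 0.45 (SE), with limma adjusted p of 0.000495 and 0.000897. These log2 changes are on the scale of log2(normalized count + 1), which understates the change of genes this low.

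The RefSeq promoter of LINC00482, from 250 bases before to 50 after its start on GRCh38.p14 (chr17:81309199-81309498, minus strand), is shown because this RNA had the largest rise in HNF4G cells. Capitals mark, in this order, a loose HNF4 pattern (CAAAGNNCA) and matches to the GC box (GGGCGG) on the opposite strand. The first pair of GC box matches overlap by a base.
LINC00482: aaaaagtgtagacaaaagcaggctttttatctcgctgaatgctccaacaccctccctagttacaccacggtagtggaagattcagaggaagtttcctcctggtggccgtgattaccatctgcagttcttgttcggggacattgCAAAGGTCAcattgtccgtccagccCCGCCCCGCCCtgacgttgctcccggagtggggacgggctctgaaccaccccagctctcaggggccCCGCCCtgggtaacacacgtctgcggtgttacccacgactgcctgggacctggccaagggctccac
A RefSeq promoter of this length was found for 70 of the 108 RNAs. Searched on both strands, the loose HNF4 pattern CAAAGNNCA occurred in 4 of the 70 (5.71%) and in 5.28% of all 35116 promoters, and the full pattern CAAAGTCCA in 0 of the 70 and 0.384% of all. GC boxes occurred in 52.9% of the 70 and 45.0% of all, and CCAAT, another common core element, in 51.4% and 34.6%. Also searched were the E-box CACGTG (7.14% of the 70 and 7.26% of all), TATAAA (8.57% and 11.5%), the cAMP response element TGACGTCA (5.71% and 1.85%), the AP-1 pattern TGANTCA (5.71% and 7.71%) and the ETS pattern CCGGAAGT (7.14% and 4.14%). A match to letters is a description and no binding site.

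LINC01647, at chr1:11609468-11613358, had 106.8 and 84.4 normalized counts in HNF4G cells with ABBV-075, against 7.8 and 3.5 with DMSO. In GFP cells it had 100.3 and 99.2 with ABBV-075, against 6.8 and 6.1 with DMSO. All 4 treated libraries lay near the same level, more than 10 times every DMSO library. The log2 changes were 3.94 ± 0.34 in HNF4G cells and 3.77 ± 0.34 in GFP cells (limma adjusted p = 0.000212 in both). Its nearest coding gene, FBXO2, which encodes a substrate-recognition subunit of a ubiquitin ligase, lay 23660 bases away and had log2 changes of −1.03 (adjusted p = 0.20) in HNF4G cells and −1.81 (adjusted p = 0.039) in GFP cells.

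LINC01511, at chr5:1353896-1380107 beside CLPTM1L, had 139.8 and 151.3 normalized counts in HNF4G cells with ABBV-075, against 33.9 and 38.0 with DMSO, and 121.2 and 129.2 in GFP cells with ABBV-075, against 31.9 and 23.2 with DMSO. Groups did not overlap, and its log2 changes were 1.99 ± 0.20 and 2.16 ± 0.20. CLPTM1L, a membrane protein gene 8797 bases away, had log2 changes of 0.04 in HNF4G cells and −0.00 in GFP cells. LINC00663, which lies among zinc finger genes at chr19:19757366-19776423, had 221.3 and 194.5 in HNF4G cells with ABBV-075, against 85.3 and 84.7 with DMSO, and 185.1 and 201.9 in GFP cells with ABBV-075, against 65.8 and 69.7 with DMSO. Its log2 changes were 1.28 ± 0.15 and 1.50 ± 0.15. ZNF506, its nearest coding gene, had log2 changes of 0.36 (adjusted p = 0.15) in HNF4G cells and 0.44 (adjusted p = 0.083) in GFP cells.

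The remaining large rises had log2 changes between 0.77 and 1.71 and passed the limma test in both lines. LINC01376 rose by 1.63 in HNF4G cells and 1.71 in GFP cells on the log2 scale; it lies 3418 bases from OSR1, a zinc finger gene of kidney and limb development, which was too low to be tested. LINC01004, which lies inside KMT2E on the opposite strand, rose by 1.70 and 1.60, while KMT2E, a gene of the histone methyltransferase family, had changes of 0.06 and −0.06. LINC02693 rose by 1.28 and 1.48, and LINC01287 by 1.41 and 1.26. LINC00685 rose by 1.56 and 1.31, and an identical annotated copy lies on chromosome Y. LINC00672, the entry annotated as protein-coding, rose by 1.57 and 1.38, beside 0.31 (adjusted p = 0.024) and 0.12 (adjusted p = 0.31) for LASP1, the actin-binding protein gene 3398 bases away; the LINC00672 call in GFP cells was lost without the first GFP-ABBV-075 library (1.10, adjusted p = 0.0533). LINC02614 rose by 0.77 in HNF4G cells and 1.42 in GFP cells, the widest gap between the lines in this group, at an interaction p of 0.0382 (limma, unadjusted; adjusted 1.00).

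**Figure D3:**
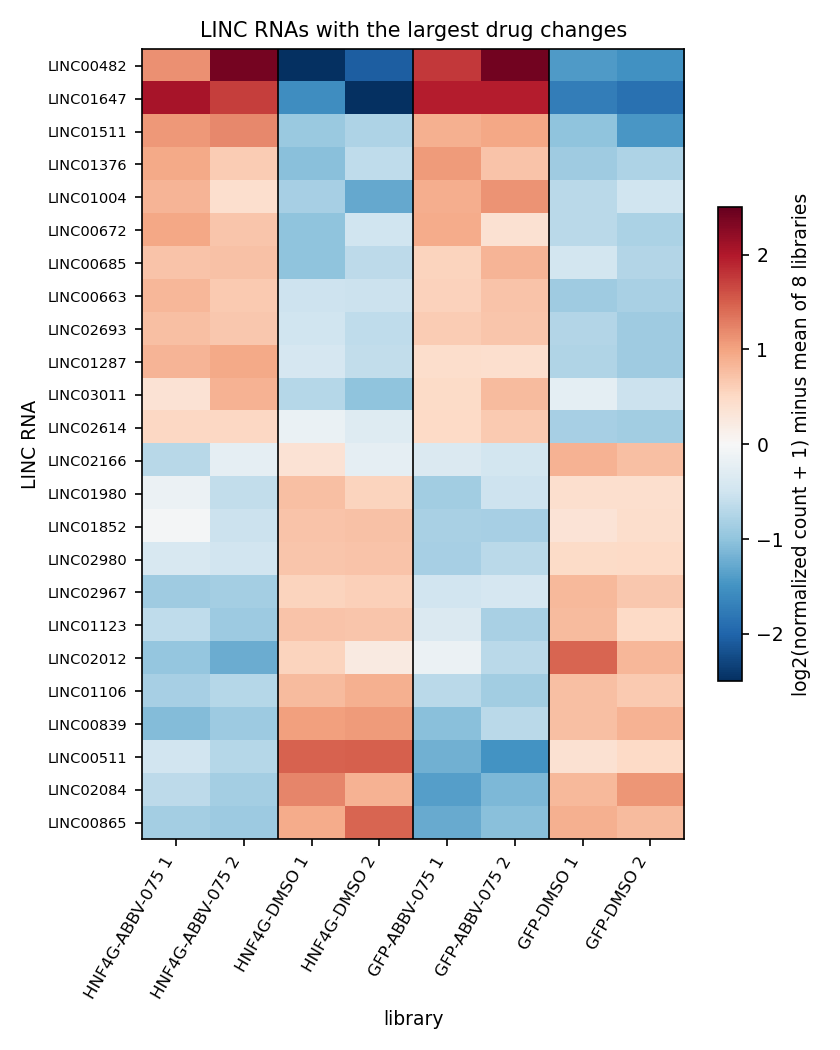
Each library's log2(normalized count + 1) minus the mean of all 8 libraries (colour, red high and blue low) for the 24 LINC RNAs with the largest called rises and falls, ordered by mean change; columns are the 2 libraries each of HNF4G cells with ABBV-075, HNF4G cells with DMSO, GFP cells with ABBV-075 and GFP cells with DMSO. The upper 12 RNAs are red in the ABBV-075 columns and the lower 12 in the DMSO columns; LINC02166, called in GFP cells only, differs less in HNF4G cells.

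On chromosome 7, LINC03011 rose by 1.47 ± 0.24 in HNF4G cells and 1.02 ± 0.24 in GFP cells. LINC00174, whose gene ends 41 bases from it, was also called higher in both lines, at 0.70 and 0.76. LINC02604, another 407099 bases on, had log2 changes of 0.80 and 0.56 and was called in neither line. On chromosome 18, LINC00526 (1.09 in HNF4G cells and 1.00 in GFP cells) and LINC00667 (0.45 and 0.46) were both called higher in both lines. Their exons, however, share 773 bases on opposite strands, so their reads may not be separable. LINC00667 also shares 523 exon bases with the coding gene ZBTB14 on the opposite strand. ZBTB14 had a mean of 994 normalized counts, beside 719 for LINC00667. Neighbours did not always move alike: on chromosome 21, LINC00205 rose by 0.66 and 0.87, while LINC01694, 292965 bases away, fell by 0.86 and 0.82.

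LINC00511 had, with LINC00865 and LINC00839, one of the 3 largest falls in HNF4G cells and was the only RNA of the class called between the lines. Its gene spans chr17:72290091-72640472 on the minus strand, downstream of the zinc transporter gene SLC39A11, and its RNA has been described as raised in several carcinomas. It had 228.1 and 193.5 normalized counts in HNF4G cells with ABBV-075, 878.5 and 898.8 in HNF4G cells with DMSO, 137.7 and 111.9 in GFP cells with ABBV-075, and 414.2 and 448.5 in GFP cells with DMSO. No groups overlapped: the order was HNF4G with DMSO, GFP with DMSO, HNF4G with ABBV-075 and GFP with ABBV-075. With the drug it fell by 2.08 ± 0.15 in HNF4G cells and fell by 1.79 ± 0.15 in GFP cells on the log2 scale (limma adjusted p = 0.000105 and 0.000152). SLC39A11, 5477 bases away, had log2 changes of −0.28 (adjusted p = 0.088) and −0.17 (adjusted p = 0.25).

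Between the lines, LINC00511 was 2.06 times higher in HNF4G cells than in GFP cells under DMSO (log2 1.04 ± 0.15, limma adjusted p = 0.0216), the single call among 108 beside 0.901% of all genes. Under ABBV-075 it was 1.69 times higher (log2 0.75 ± 0.15, adjusted p = 0.0527). No RNA of the class was called there by limma, beside 1.97% of all genes. An unadjusted limma p under 0.05 was reached by 22 of the 108, beside 2693 of all 17876 genes. By edgeR 0 of the class were called and by DESeq2 1, LINC00511. The call under DMSO was lost without either HNF4G-DMSO library (adjusted p = 0.113 and 0.166) and without either GFP-DMSO library (adjusted p = 0.281 and 0.193), while the log2 change stayed between 0.98 and 1.10. Without both libraries of low GC content the log2 difference was 1.03 under DMSO (adjusted p = 0.000763) and 0.64 under ABBV-075 (adjusted p = 0.009). That setting left 1 library in each HNF4G group, taken to vary like the other groups, so these p-values carry no replicate check of the HNF4G side.

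The promoter of LINC00511 (RefSeq, GRCh38.p14, chr17:72640423-72640722, minus strand) is shown because this RNA was called with the drug in both lines and between the lines under DMSO. The call between the lines was lost under 6 of the alternative settings. Capitals mark its GC box, the only match among the patterns searched.
LINC00511: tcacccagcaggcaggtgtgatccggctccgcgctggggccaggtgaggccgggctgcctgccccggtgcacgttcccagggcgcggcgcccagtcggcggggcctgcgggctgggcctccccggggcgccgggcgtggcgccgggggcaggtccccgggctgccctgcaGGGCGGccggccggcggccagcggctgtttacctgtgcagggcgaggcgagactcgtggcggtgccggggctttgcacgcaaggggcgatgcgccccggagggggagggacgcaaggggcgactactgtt

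LINC00865 and LINC00839 fell by similar amounts. LINC00865, at chr10:89829483-89840863, had 22.3 and 21.6 normalized counts in HNF4G cells with ABBV-075, against 79.5 and 114.9 with DMSO, and 16.5 and 19.6 in GFP cells with ABBV-075, against 77.4 and 71.7 with DMSO. Its log2 changes were −2.07 ± 0.24 and −1.99 ± 0.24 (limma adjusted p = 0.000649 and 0.000702), and its nearest coding gene, the mitotic kinesin gene KIF20B, had 0.30 and 0.11 at 54544 bases. LINC00839, at chr10:42475480-42495337, had 65.0 and 73.1 in HNF4G cells with ABBV-075, against 284.1 and 292.1 with DMSO, and 66.1 and 86.5 in GFP cells with ABBV-075, against 233.2 and 252.5 with DMSO. It fell by 2.05 ± 0.17 and 1.67 ± 0.17 on the log2 scale. The groups of neither RNA overlapped. The LINC00865 promoter (RefSeq, GRCh38.p14, chr10:89829243-89829542, plus strand) follows for the comparison with LINC00511, with its single CCAAT box in capitals and no GC box.
LINC00865: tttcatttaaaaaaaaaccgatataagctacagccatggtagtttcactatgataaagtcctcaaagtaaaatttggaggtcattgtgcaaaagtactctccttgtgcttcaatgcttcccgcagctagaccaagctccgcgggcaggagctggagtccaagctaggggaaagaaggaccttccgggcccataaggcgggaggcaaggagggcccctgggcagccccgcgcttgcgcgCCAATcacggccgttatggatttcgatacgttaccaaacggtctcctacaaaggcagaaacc

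**Figure D4:**
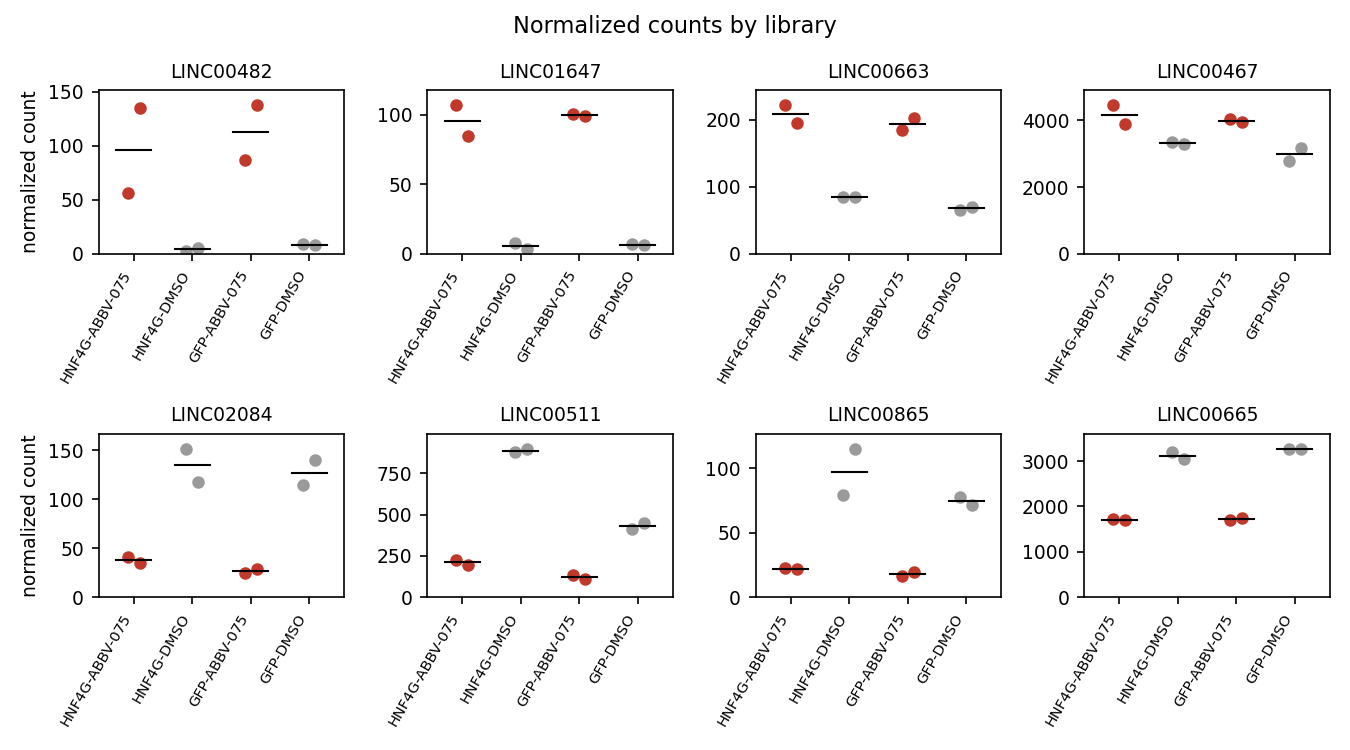
Normalized counts of 8 LINC RNAs, 1 dot per library and a line at the mean of each group of 2, with ABBV-075 in red and DMSO in grey; groups run from left to right as HNF4G-ABBV-075, HNF4G-DMSO, GFP-ABBV-075 and GFP-DMSO. LINC00482, LINC01647, LINC00663 and LINC00467 sit higher with ABBV-075 in each line, and LINC02084, LINC00511, LINC00865 and LINC00665 lower; LINC00511 under DMSO is at 878.5 and 898.8 in HNF4G cells and at 414.2 and 448.5 in GFP cells.

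LINC02084 is a single-exon gene at chr3:27712910-27714005 that runs toward the end of EOMES, a T-box transcription factor gene of mesoderm and lymphocyte development, which lies 1944 bases away on the opposite strand. It had 40.8 and 35.0 normalized counts in HNF4G cells with ABBV-075, against 151.3 and 117.5 with DMSO, and 24.2 and 28.8 in GFP cells with ABBV-075, against 114.2 and 139.4 with DMSO. EOMES had 41.7 and 38.1 in HNF4G cells with ABBV-075, against 139.6 and 146.1 with DMSO, and 12.1 and 12.7 in GFP cells with ABBV-075, against 54.2 and 65.7 with DMSO. Both were lower in every treated library than in every DMSO library of their line. The log2 changes of LINC02084 were −1.79 ± 0.22 in HNF4G cells and −2.21 ± 0.22 in GFP cells, beside −1.82 ± 0.20 and −2.18 ± 0.20 for EOMES. LINC01980, also closest to EOMES at 74841 bases, fell by 1.03 ± 0.20 and 1.12 ± 0.20. Between the lines the values of the neighbours parted: EOMES was higher in HNF4G cells than in GFP cells under DMSO (log2 1.25 ± 0.20, limma adjusted p = 0.0339) and under ABBV-075 (1.61 ± 0.20, adjusted p = 0.00679), while LINC02084 had 0.08 ± 0.22 and 0.50 ± 0.22 (adjusted p = 0.88 and 0.33). That contrast between the 2 genes was not tested. The LINC02084 promoter (RefSeq, GRCh38.p14, chr3:27712669-27712968, plus strand) is shown because this RNA had the largest fall in GFP cells; it holds none of the patterns searched, so it has no capitals.
LINC02084: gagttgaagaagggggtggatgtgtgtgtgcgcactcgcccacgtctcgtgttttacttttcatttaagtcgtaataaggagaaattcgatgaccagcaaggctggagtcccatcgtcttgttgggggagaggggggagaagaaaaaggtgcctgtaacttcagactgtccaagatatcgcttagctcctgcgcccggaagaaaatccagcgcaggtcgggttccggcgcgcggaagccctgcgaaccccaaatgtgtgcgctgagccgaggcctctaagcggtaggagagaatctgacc

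LINC01106 and LINC01123 fell together, but they are near-copies. They lie 378998 bases apart on chromosome 2, on opposite strands, at chr2:110375138-110384442 and chr2:109987063-109996140, and at 95% identity or more LINC01123 covers 96.2% of LINC01106's longest transcript and LINC01106 covers 82.6% of LINC01123's. LINC01106 had 97.1 and 105.0 normalized counts in HNF4G cells with ABBV-075, against 300.6 and 318.9 with DMSO, and 108.0 and 93.4 in GFP cells with ABBV-075, against 289.4 and 271.7 with DMSO. LINC01123 had 78.6 and 64.8 in HNF4G cells with ABBV-075, against 201.7 and 197.1 with DMSO, and 94.8 and 69.2 in GFP cells with ABBV-075, against 212.9 and 172.7 with DMSO. Their log2 changes were −1.61 and −1.47 for LINC01106 and −1.47 and −1.23 for LINC01123 in HNF4G and GFP cells, with limma adjusted p from 0.000217 to 0.00296. An unnamed lncRNA gene on chromosome 22, with a mean of 59.6 normalized counts, likewise covers 73.9% of LINC01106's longest transcript. Reads from any of these genes may have been counted for another, and the counter's handling of such reads was not stated. The RefSeq promoters of LINC01106 and LINC01123 (GRCh38.p14, chr2:110384487-110384786, minus strand, and chr2:109986730-109987029, plus strand) are shown because they are the same over all 289 aligned bases. Capitals mark the 11 bases at an end of each window that lie outside the aligned stretch.
LINC01106: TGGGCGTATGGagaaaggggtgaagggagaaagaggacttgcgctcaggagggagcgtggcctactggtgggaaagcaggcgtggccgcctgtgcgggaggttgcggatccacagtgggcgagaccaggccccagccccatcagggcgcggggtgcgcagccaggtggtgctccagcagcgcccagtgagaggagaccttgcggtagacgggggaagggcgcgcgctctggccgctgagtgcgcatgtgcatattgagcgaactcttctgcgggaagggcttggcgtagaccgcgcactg
LINC01123: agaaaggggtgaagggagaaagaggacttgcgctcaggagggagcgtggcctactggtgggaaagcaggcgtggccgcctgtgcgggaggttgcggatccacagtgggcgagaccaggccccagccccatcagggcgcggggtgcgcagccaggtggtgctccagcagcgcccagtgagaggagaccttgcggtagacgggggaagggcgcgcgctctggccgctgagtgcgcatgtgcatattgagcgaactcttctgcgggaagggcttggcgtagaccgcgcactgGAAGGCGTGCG

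The other large falls that passed the test lay between 1.01 and 1.55 on the log2 scale. LINC02967 fell by 1.44 ± 0.12 in HNF4G cells and 1.20 ± 0.12 in GFP cells. LINC02980, 1410 bases from the ubiquitin ligase gene TRIM38, fell by 1.14 and 1.24, and TRIM38 by 0.76 and 0.61, all 4 past the test. LINC02012, 2797 bases from BDH1, the ketone body enzyme gene of mitochondria, fell by 1.50 and 1.55, and BDH1 by 1.15 and 1.22; the LINC02012 call in GFP cells was lost without the first GFP-DMSO library (adjusted p = 0.0526). LINC01852 fell by 1.01 and 1.21. LINC02166, inside the kinase gene CDK10 on the opposite strand, fell by 1.22 ± 0.24 in GFP cells (limma adjusted p = 0.0061), while in HNF4G cells its change was −0.52 ± 0.24 (adjusted p = 0.13), with 62.1 and 85.4 normalized counts under ABBV-075 against 129.0 and 85.6 under DMSO. In HNF4G cells the highest treated value and the lowest DMSO value almost met.

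Among RNAs close to a coding gene, those without divergent starts tended to have a change like that gene's. For 29 RNAs whose nearest coding gene was tested and lay within 5000 bases, leaving out those with divergent starts, the log2 changes of RNA and gene had r = 0.62 in HNF4G cells and 0.61 in GFP cells (Spearman rho 0.64 and 0.53). Without the 2 RNAs farthest from the median, r was 0.67 in HNF4G cells and 0.50 in GFP cells. For the 23 of these RNAs that share no exon bases with the gene, r was 0.65 and 0.63. For 48 RNAs with a nearest gene over 5000 bases away, r was −0.00 and −0.01. For the 7 RNAs with divergent starts, r was 0.39 in HNF4G cells and 0.20 in GFP cells. Without the 2 of them farthest from the median, it was −0.05 and 0.30. These are descriptions: the points come from the same libraries, some neighbours overlap the RNA, and genes are not independent replicates. Of the 29, 14 RNAs and 7 coding genes were called in HNF4G cells and 15 and 9 in GFP cells, beside 31.2% and 33.4% of all genes. Both partners were called in 6 pairs in each line, 5 in the same direction and 1, LINC00665 with ZFP14, in opposite directions. Whether 6 is more than unlinked pairs would give was not tested. In 8 RNAs in HNF4G cells and 9 in GFP cells the RNA was called and the gene was not. Of the 29, 10 lay past the 3′ end of the coding gene on its own strand, and these 10 held 5 of the 6 pairs called in each line. Among the 10 were LINC00665, LINC02980, LINC02012, LINC00672 and LINC00342. The called pairs were not all the same in both lines. In GFP cells LINC00342 was not called (limma adjusted p = 0.0954), nor was LASP1, the neighbour of LINC00672. Among the other 19, the pair called in both lines was LINC02084 with EOMES. For these 19, r was 0.69 in HNF4G cells and 0.67 in GFP cells. Without the 2 RNAs farthest from the median, it was 0.73 and 0.43.

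**Figure D5:**
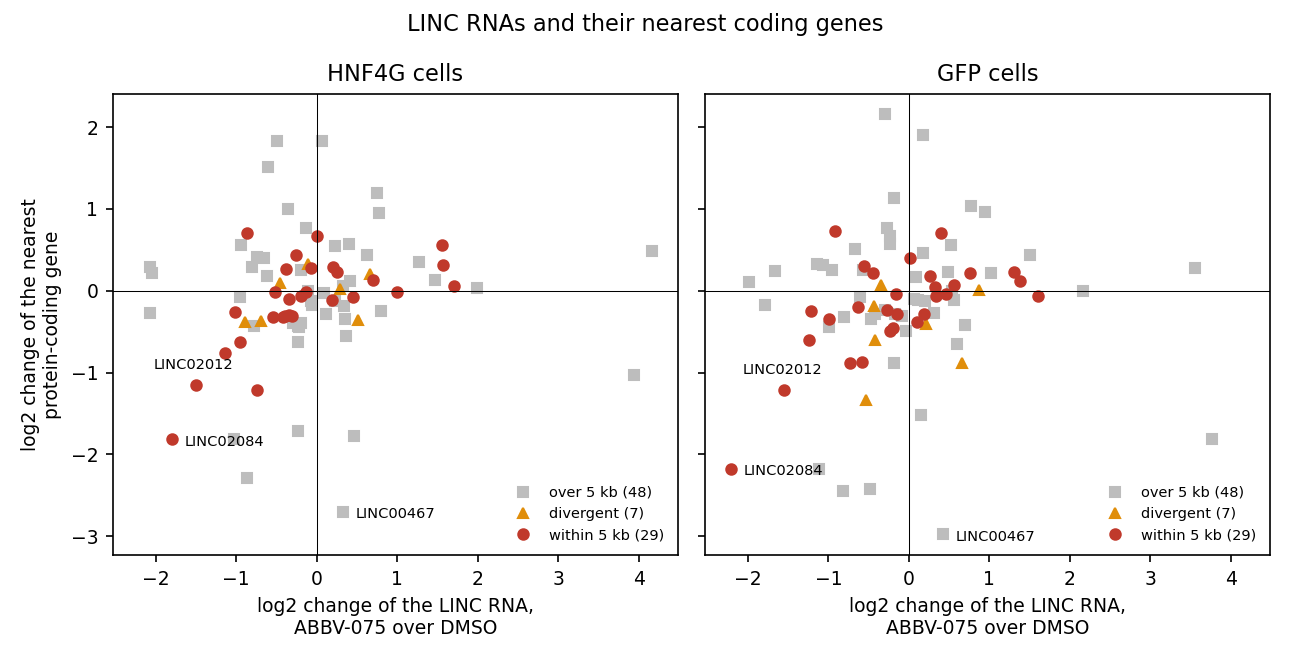
log2 change with ABBV-075 over DMSO of each LINC RNA (horizontal) and of its nearest protein-coding gene (vertical) in HNF4G cells (left) and GFP cells (right); red circles are 29 pairs within 5 kb, orange triangles 7 pairs with divergent starts within 1 kb and grey squares 48 pairs over 5 kb apart. Red points slope upward (r = 0.62 and 0.61) and grey points do not (r = −0.00 and −0.01); LINC00467 lies far below zero on the vertical axis.

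In 7 RNAs the start lay within 1000 bases of a coding gene's start on the opposite strand. Of these, 4 were called in HNF4G cells and 3 in GFP cells, and their coding partners were called in 1 and 2, beside 31.2% of all genes in HNF4G cells and 33.4% in GFP cells. With 7 pairs, the difference between RNAs and partners was not tested. LINC00205, 137 bases from POFUT2, which encodes a fucose-transferring enzyme, had 234.9 and 283.0 normalized counts in HNF4G cells with ABBV-075, against 163.9 and 161.6 with DMSO, and 293.1 and 274.5 in GFP cells with ABBV-075, against 157.7 and 151.5 with DMSO. Its groups did not overlap, and its log2 changes were 0.66 ± 0.14 and 0.87 ± 0.14 (limma adjusted p = 0.01 and 0.00275). The HNF4G call was lost when only its own 4 libraries were fitted (adjusted p = 0.0687). POFUT2 had 0.21 and 0.01 (adjusted p = 0.26 and 0.98).

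Of the 6 RNAs with the highest counts, some rose, some fell and some passed the test in neither line. LINC00467, whose transcript has been reported to encode a small mitochondrial protein, had 4450 and 3896 normalized counts in HNF4G cells with ABBV-075, against 3337 and 3291 with DMSO, and 4029 and 3958 in GFP cells with ABBV-075, against 2776 and 3182 with DMSO. All treated libraries were above all DMSO libraries, and its log2 changes were 0.33 ± 0.11 in HNF4G cells (limma adjusted p = 0.0525) and 0.43 ± 0.11 in GFP cells (adjusted p = 0.0194). Leaving out either GFP-ABBV-075 library or the first GFP-DMSO library took the GFP call away (adjusted p = 0.124, 0.108 and 0.156), while 8 of the alternative settings, edgeR among them (adjusted p = 0.0416), made HNF4G cells a call. Its nearest coding gene was singled out after its values were seen: TRAF5, a signalling adaptor of tumour necrosis factor receptors 7790 bases away on the same strand, had 67.9 and 55.6 in HNF4G cells with ABBV-075, against 384.0 and 430.4 with DMSO, and 39.7 and 30.0 in GFP cells with ABBV-075, against 258.4 and 300.0 with DMSO. TRAF5 thus fell by 2.71 ± 0.19 and 2.98 ± 0.19 on the log2 scale, next to an RNA whose values were higher.

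LINC00963, an RNA described in the progression of prostate cancer to androgen independence, had 1653 and 1794 normalized counts in HNF4G cells with ABBV-075, against 3439 and 3250 with DMSO, and 2051 and 2106 in GFP cells with ABBV-075, against 3692 and 3576 with DMSO. It fell by 0.96 ± 0.10 and 0.81 ± 0.10 on the log2 scale, with no overlap of groups (limma adjusted p = 0.000341 and 0.000664). LINC00665, which has been reported to encode a micropeptide in breast cancer, had 1718 and 1696 in HNF4G cells with ABBV-075, against 3197 and 3036 with DMSO, and 1706 and 1741 in GFP cells with ABBV-075, against 3268 and 3259 with DMSO. It fell by 0.87 ± 0.09 and 0.92 ± 0.09, and its 4 treated values lay within 1696 to 1741 in both lines. ZFP14, the zinc finger gene 2683 bases away on the same strand, rose by 0.70 and 0.74. LINC01029 fell by 0.65 and 0.74. LINC00938 had log2 changes of 0.19 (adjusted p = 0.17) in HNF4G cells and 0.34 (adjusted p = 0.0286, lost under 7 of the alternative settings) in GFP cells, and LINC01234 of −0.07 and −0.08 (adjusted p = 0.74 and 0.69). Per kilobase of longest annotated transcript, the mean normalized counts of these RNAs were 1022 for LINC00467, 733 for LINC01029, 671 for LINC00665, 339 for LINC01234, 282 for LINC00963 and 220 for LINC00938.

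A list of 28 LINC RNAs described in cancer or in hepatic and intestinal cells had 16 that could be tested, 13 of them among the 108. In HNF4G cells 2 of the 16 rose and 5 fell, with a median log2 change of −0.25, beside 12.9% higher and 18.3% lower over all genes tested. In GFP cells 4 rose and 3 fell, with a median of −0.16, beside 14.2% and 19.2%. LINC01278 fell by 0.40 in HNF4G cells (limma adjusted p = 0.0245, lost under 11 of the alternative settings) and had −0.28 in GFP cells (adjusted p = 0.0801). LINC00342, of which 91.3% is matched by a near-copy on chromosome 2, fell by 0.74 in HNF4G cells (adjusted p = 0.0483), with 55.3 and 38.1 normalized counts under ABBV-075 against 77.6 and 76.9 under DMSO. That call was lost under 13 of the alternative settings. LINC00641, LINC00662, LINC00886 and LINC01503 passed the test in neither line, at log2 changes from −0.36 to 0.32. LINC00886 in HNF4G cells depended on a library, with −0.75 (adjusted p = 0.0311) without the first HNF4G-ABBV-075 library and −0.77 (adjusted p = 0.0166) without both libraries of low GC content. LINC01089 had −0.46 and −0.53 (adjusted p = 0.12 and 0.078), and its exons share 1724 bases with RHOF. It became a call under 3 of the alternative settings in HNF4G cells, among them −0.70 without the second HNF4G-ABBV-075 library (adjusted p = 0.0335), and under 6 in GFP cells.

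Lists of other long non-coding RNAs are set here beside the all-gene shares of 12.9% higher and 18.3% lower in HNF4G cells, and 14.2% higher and 19.2% lower in GFP cells. Of 24 tested hosts of small nucleolar RNAs, 0 rose and 9 fell in HNF4G cells and 0 rose and 11 fell in GFP cells, with medians of −0.26 and −0.21. SNHG4 fell by 1.66 and 1.73 and SNHG15 by 1.22 and 1.17. Of 9 prostate lncRNAs, 1 rose and 4 fell in HNF4G cells and 0 rose and 5 fell in GFP cells; DRAIC, described as lost in the progression of prostate cancer, fell by 2.12 and 1.88. Of 12 microRNA hosts, 2 rose and 2 fell in HNF4G cells and 2 rose and 3 fell in GFP cells; MIRLET7BHG, host of let-7 microRNAs, rose by 1.34 and 1.63 and MIR34AHG fell by 2.03 and 1.73. Of 18 other named lncRNAs, 3 rose and 3 fell in HNF4G cells and 5 rose and 3 fell in GFP cells; the nuclear RNAs NEAT1 (1.15 and 1.33) and MALAT1 (1.02 and 0.96) rose in both. In bulk RNA, a change in the share of cells that express a gene and a change in RNA per cell cannot be told apart.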

How the data were processed

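Poly-A RNA of 8 libraries of 22Rv1 cells was sequenced by the authors on an Illumina NovaSeq as paired ends and aligned to hg38 with STAR (version 2.6 in the submitters' processing notes). Which program counted the reads, with which annotation and strand option, and how the size factors were set are not given in the sources used here. Deposited signal values form a table of normalized counts: each library's reads per gene divided by 1 size factor, so that 100% of values came out as whole reads within 0.01. Another 2 entries with a repeated identifier were dropped from 57605.

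Differences were tested with limma 3.58.1 (R 4.3.3, intensity trend) on log2(normalized count + 1) over the 17876 genes with a mean of at least 10, fitting 4 group means over all 8 libraries, with Benjamini-Hochberg adjustment over those genes and calls at 0.05. The contrasts were ABBV-075 against DMSO in each line, HNF4G against GFP under each treatment, and the interaction. "±" is the standard error of a log2 change. edgeR 4.0.16 and DESeq2 1.42.0 on the recovered reads were alternatives, beside other pseudocounts, filters, scalings, a GC and length correction, a replicate block and leaving out each library. The fit was tested on simulated data. Positions and exons came from GENCODE 44, near-copies from blastn 2.17.0+, and promoters from RefSeq (GRCh38.p14); the nearest coding gene was that with the smallest gap between gene bodies.

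Named were the 6 RNAs with the highest mean, up to 10 rises and 10 falls by log2 change per drug comparison among called RNAs whose groups do not overlap, RNAs called between the lines, those of a list of LINC RNAs described in the literature, and from lists of other lncRNAs up to 2 called per direction. RNAs named by their position beside another member were chosen after their values were seen. The RNAs and the lists were chosen with earlier results of these data known. Reads without molecular identifiers are not independent molecules.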

Additional observations from a re-analysis of the deposited data

How the results depend on the processing

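All signs of the called drug changes, 53 in HNF4G cells and 55 in GFP cells, held under every alternative run. The counts of calls moved. In GFP cells the 55 calls became 36 to 57 when each library was left out in turn, with 36, 36, 36 and 38 of them kept without the first or second GFP-ABBV-075 and GFP-DMSO library. In HNF4G cells the 53 calls became 35 when only the 4 libraries compared were fitted, and 40 to 52 when each library was left out. For HNF4G against GFP under DMSO the 1 call became 0 without the intensity trend and 0 with the replicate block, 7 with the GC and length correction, 4 with that correction and the replicate block, 4 without the pair of low-GC libraries, and 0 to 1 leaving out each library. Under ABBV-075 the 0 calls became 1 with DESeq2, 13 with the GC and length correction, 10 with that correction and the replicate block, 7 without both libraries of low GC content, 0 to 2 leaving out each library and 1 with the crossed block. The interaction had 0 calls throughout. The cause was not tested. Shares of all genes called under these alternative settings are not given here. The moved counts are thus not shown to be particular to these RNAs. The GC and length correction moved the median of all genes by 0.11 in HNF4G cells and 0.12 in GFP cells (log2, drug comparisons).

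Replicate numbers showed no clear pairing of the libraries. Over all genes tested, deviations from the group means correlated at 0.05 between GFP-ABBV-075 and HNF4G-ABBV-075 and −0.05 between GFP-ABBV-075 and GFP-DMSO. They correlated at −0.59 between HNF4G-ABBV-075 and HNF4G-DMSO, and 0.13 between GFP-DMSO and HNF4G-DMSO. Over the RNAs of the class, the values in the same order were 0.24, −0.04, −0.29 and 0.13. Each group of 2 libraries gives a single deviation, so whether the numbers pair libraries cannot be decided. The replicate block gave 44 calls in HNF4G cells and 47 in GFP cells. With the numbers of HNF4G-ABBV-075 crossed, an alternative chosen after seeing the data, the calls were 56 in HNF4G cells and 57 in GFP cells. With 2 libraries a group and levels from 52 normalized counts upward, small changes of the less abundant RNAs were not detectable.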
